A study of Mus musculus with 6 samples.

Results

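The genes described are 10 germline genes, Dazl, Taf7l, Sycp1, Sycp3, Mael, Asz1, Tdrd1, Fkbp6, Stk31 and Tex101, which were chosen by name out of 49415 gene names in the deposited tables. Each of the 10 has 1 assembled locus that carries no other gene name. The RNA came from embryonic stem cells of the mouse strain C57BL/6J, which derive from the blastocyst and can form all tissues of the body. All cells carry floxed Mll1 alleles and Cre-ER TM, a Cre recombinase that tamoxifen activates; the labels list no tamoxifen, so no group is labelled as lacking Mll1. Cells were given 1 µM 1α,25-dihydroxyvitamin D3 (VD3), the active form of vitamin D, together with 100 µM MM-401, an MLL1 inhibitor, for 5 days, or VD3 alone for 5 days, or were untreated. All grew with leukemia inhibitory factor on mouse embryonic fibroblast feeder cells. Each group has 2 libraries, labelled as biological duplicates, and the tables hold 1 pooled column per group. No difference below therefore has a replicate check, and no p-value is given. The labels give no group with MM-401 alone, no promoter for the Cre and no time for the untreated cells, and they name serum and serum replacement as media without saying which library had which.

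The pools held 73499639 estimated counts for VD3 plus MM-401, 73636342 for VD3 and 62284598 for untreated cells. The pluripotency markers fixed for this tissue were present in every pool: 12 of 12 had a mean of at least 1 FPKM (a fragment count scaled to transcript length and sequencing depth), and their summed level was 6358 FPKM with VD3 plus MM-401, 5238 with VD3 and 3362 in untreated cells. Of these, Lin28a was past 2-fold higher by FPKM + 1 with VD3 than untreated (257 against 117 FPKM, intervals apart). With VD3 plus MM-401, Dppa5a (2088 with VD3 plus MM-401, 959 with VD3, 628 in untreated cells) and Dnmt3l (299 against 145 in untreated cells, intervals overlapping) were. The locus of Dppa5a carries other names too. By counts scaled to the pool total (CPM) with 1 added, the log2 ratios of these differences from untreated cells were short of 2-fold. They were 0.89 for Lin28a, 0.94 for Dppa5a and 0.63 for Dnmt3l. Of 15 spermatid genes, 12 had a mean below 1 FPKM, and the protamine genes Prm1 and Prm2, which package sperm DNA, with Tnp1, Acrv1 and Akap4, were listed at 0 in every pool. The spermatid list summed to 189 FPKM with VD3 plus MM-401, 264 with VD3 and 216 in untreated cells, of which Odf2, also a centrosome gene of other cells, made up 178 with VD3 plus MM-401, 251 with VD3 and 207 in untreated cells. Of 12 oocyte genes, 10 were below 1 FPKM, with Oosp1 at 0, and the list summed to 15.7 FPKM with VD3 plus MM-401, 21.5 with VD3 and 16.2 in untreated cells, with the highest mean in Sohlh2 (6.06 with VD3 plus MM-401, 11.2 with VD3, 10.5 in untreated cells). Of 11 Sertoli and Leydig cell markers, 7 were below 1 FPKM, with Rhox8 and Hsd3b1 at 0, and they summed to 19.0 FPKM with VD3 plus MM-401, 21.99 with VD3 and 14.4 in untreated cells; Wt1 had the highest mean of them (7.004 with VD3 plus MM-401, 11.1 with VD3, 7.34 in untreated cells), and Insl3, at a locus shared with other names, was past 2-fold (5.65 with VD3 plus MM-401, 1.82 in untreated cells, intervals overlapping). Fibroblast markers summed to 1161 FPKM with VD3 plus MM-401, 1281 with VD3 and 789 in untreated cells, with Lum at 0 and 10 of 18 at or above 1 FPKM. Sparc made up the largest part, at 471 with VD3 plus MM-401, 575 with VD3 and 394 in untreated cells. Col1a1, Col1a2, Col6a1, Dcn, Pdgfra, Pdgfrb and Postn had means below 1 FPKM. Col1a1 was at 0.412 with VD3 plus MM-401, 0.657 with VD3 and 0.630 in untreated cells. Fn1 was lower in the treated pools, at 101 with VD3 plus MM-401, 115 with VD3 and 136 in untreated cells. Among the fibroblast markers, Vim stood at 165 FPKM with VD3 plus MM-401, 159 with VD3 and 50.4 in untreated cells, and S100a6 at 287 with VD3 plus MM-401, 213 with VD3 and 83.8 in untreated cells. Both genes were past 2-fold higher in each treated pool than in untreated cells, by FPKM + 1 and by CPM + 1, and their intervals were apart except those of Vim with VD3 plus MM-401. Col3a1, at a locus shared with other names, was at 0.553 with VD3 plus MM-401, 3.93 with VD3 and 4.19 in untreated cells, while its log2 ratio for VD3 plus MM-401 over untreated by CPM + 1 was 0.11. The part of these markers in the differences below was not tested.

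Germline genes of this kind are known from other work to have CpG-rich promoters that carry DNA methylation in somatic cells, and to stay silent there. In mouse embryonic stem cells a form of Polycomb repressive complex 1 named PRC1.6, which holds E2F6, MGA and MAX, is known to hold many of them down together with histone H3 lysine 9 methylation and DNA methylation. MGA and MAX bind the E-box CACGTG as a pair, and E2F6 binds sites with the core GCGGGA. In the germline these genes serve meiosis and the piRNA pathway, in which small RNAs guide the silencing of transposons. DNA methylation was not measured in these samples, so whether the promoters were methylated is not known from these data.

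The members were chosen from a class of genes known for CpG-rich promoters and for repression by PRC1.6. CpG content and these motifs are therefore not independent of the choice, and they are described here without a test. The promoter windows of the 6 members with the highest mean FPKM are given below. Each runs 5′ to 3′ from 250 bases before to 50 bases after the first start listed by RefSeq (GRCm38.p6, the sequence of mm10), and capitals mark matches to CACGTG, a palindrome, or to GCGGGA on either strand (TCCCGC); the motifs do not overlap in these windows.
Mael (chr1:166238695-166238994, minus strand): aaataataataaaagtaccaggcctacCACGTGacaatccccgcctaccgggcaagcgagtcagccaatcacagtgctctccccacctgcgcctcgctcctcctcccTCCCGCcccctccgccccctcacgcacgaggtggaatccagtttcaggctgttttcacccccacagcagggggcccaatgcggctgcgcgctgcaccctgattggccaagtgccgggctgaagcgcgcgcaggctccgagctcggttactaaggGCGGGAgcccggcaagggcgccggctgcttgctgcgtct
Fkbp6 (chr5:135349995-135350294, minus strand): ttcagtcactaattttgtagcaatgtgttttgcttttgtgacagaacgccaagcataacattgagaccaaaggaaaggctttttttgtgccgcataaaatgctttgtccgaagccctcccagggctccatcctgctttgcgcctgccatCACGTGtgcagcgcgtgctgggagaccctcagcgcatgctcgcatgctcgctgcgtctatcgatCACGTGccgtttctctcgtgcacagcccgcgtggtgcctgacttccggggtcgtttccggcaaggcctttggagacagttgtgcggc
Sycp1 (chr3:102936051-102936350, minus strand): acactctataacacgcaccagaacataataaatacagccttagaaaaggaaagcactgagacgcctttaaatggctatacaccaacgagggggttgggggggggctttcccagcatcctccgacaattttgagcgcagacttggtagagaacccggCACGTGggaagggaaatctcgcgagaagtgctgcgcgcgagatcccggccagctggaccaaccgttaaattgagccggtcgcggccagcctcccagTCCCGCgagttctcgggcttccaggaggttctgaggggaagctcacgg
Sycp3 (chr10:88459337-88459636, plus strand): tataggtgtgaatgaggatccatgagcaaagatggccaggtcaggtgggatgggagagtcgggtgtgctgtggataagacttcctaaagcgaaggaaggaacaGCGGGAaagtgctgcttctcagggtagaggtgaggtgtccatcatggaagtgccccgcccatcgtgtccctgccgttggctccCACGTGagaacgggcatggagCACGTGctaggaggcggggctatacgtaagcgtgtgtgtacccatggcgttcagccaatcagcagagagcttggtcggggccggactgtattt
Taf7l (chrX:134476441-134476740, minus strand): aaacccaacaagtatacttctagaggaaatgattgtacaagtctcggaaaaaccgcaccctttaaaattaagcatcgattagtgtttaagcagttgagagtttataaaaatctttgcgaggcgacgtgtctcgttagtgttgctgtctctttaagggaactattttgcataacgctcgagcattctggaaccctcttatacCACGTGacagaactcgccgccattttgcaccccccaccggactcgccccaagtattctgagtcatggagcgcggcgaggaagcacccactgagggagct
Dazl (chr17:50293571-50293870, minus strand): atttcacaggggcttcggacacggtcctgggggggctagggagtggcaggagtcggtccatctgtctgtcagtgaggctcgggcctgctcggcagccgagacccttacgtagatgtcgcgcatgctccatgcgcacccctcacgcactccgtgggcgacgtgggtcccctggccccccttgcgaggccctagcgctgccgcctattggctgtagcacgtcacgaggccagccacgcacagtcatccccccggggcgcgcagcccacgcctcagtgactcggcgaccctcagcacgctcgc

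All 10 members were matched in the RefSeq promoter table. CACGTG was found in 7 of 10 member windows (70%), against 7.24% of the 27025 windows of all genes. Mael, Sycp1, Tdrd1, Taf7l and Stk31 had 1 match each, and Fkbp6 and Sycp3 had 2 each. Dazl, Asz1 and Tex101 had none in this window. GCGGGA on either strand was found in 3 of 10 members, Mael (2 matches), Sycp1 (1) and Sycp3 (1), against 20.0% of all windows, and all 3 also held CACGTG, which 2.05% of all windows do. Both motifs contain CpG, and the windows of all genes were not matched to the members for CpG or GC content. Their median was 7 CpG, against 20.5 in the member windows. How much of the difference in motif shares goes with CpG content was not tested. A match is a run of letters and was not tested as a binding site.

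The member windows were also rich in CpG, the dinucleotide that is methylated. They held a median of 20.5 CpG, against 7 in all windows. The CpG count relative to that expected from the C and G content had a median of 0.789 over the members and 0.389 over all windows. It ran from 0.666 in Sycp3 to 1.03 in Taf7l, so at the first listed start each of the 10 lay above the median of all windows. Fkbp6, Stk31 and Tdrd1 have further listed starts, which were not used in these medians. Those were at 0.994 for Fkbp6, 0.750 for Stk31, and 0.810 and 0.216 for Tdrd1. The last of them, with 3 CpG and no CACGTG, lay below the median of all windows. Dazl, which was lower in the VD3 pool than in untreated cells, was at 0.795, and Fkbp6, which was higher there, at 0.926.

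**Figure D1:**
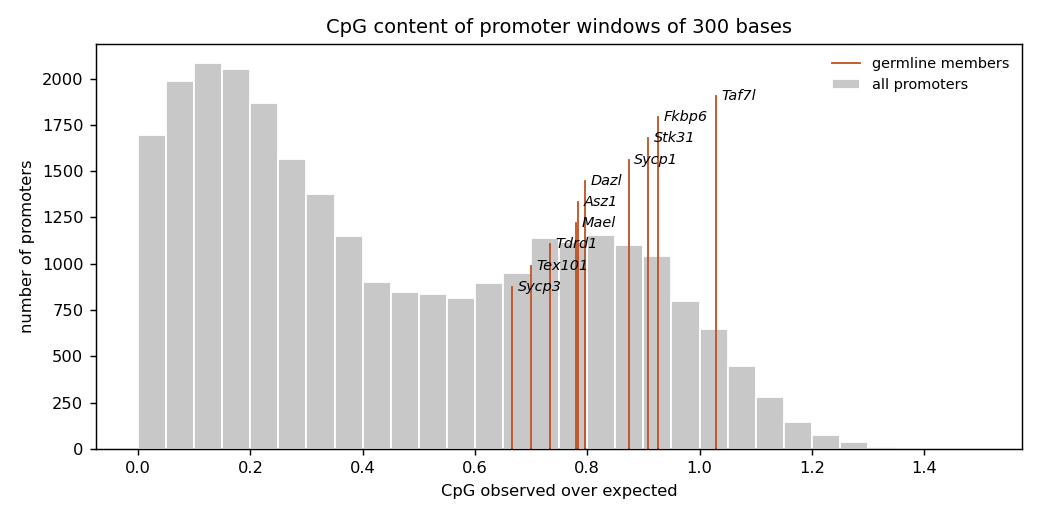
CpG observed over expected (x axis) in promoter windows of 300 bases; grey bars count windows of all genes (y axis), and each orange line marks 1 of the 10 germline genes, its height chosen only to fit the name. At the first listed start of each gene, the members lie between 0.666 and 1.03, to the right of the median of all windows at 0.389.

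The members were expressed at low to moderate levels. In untreated cells the order of FPKM was Sycp3 (17.4), Sycp1 (16.7), Mael (10.2), Dazl (6.98), Fkbp6 (6.65), Taf7l (5.46), Stk31 (3.82), Tdrd1 (1.45), Tex101 (0.442) and Asz1 (0.293). The authors' intervals of neighbours in this order overlapped, except between Stk31 and Tdrd1. With VD3 plus MM-401 the highest was Mael and with VD3 it was Fkbp6; in each of those pools 1 pair of neighbours had intervals apart, Tdrd1 and Asz1 with VD3 plus MM-401 and Sycp3 and Tdrd1 with VD3. Of the 10 members, 8 had a mean of at least 1 FPKM over the 3 pools and entered the comparisons, while Asz1 and Tex101 did not. In FPKM not adjusted for GC content and length, Dazl and both synaptonemal complex genes stood lower in both treated pools. Fkbp6 stood higher with VD3 alone, and Mael and Taf7l differed little. In these bulk samples fewer cells that express a gene and less RNA per cell cannot be told apart.

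Dazl (GENCODE vM21, GRCm38, chr17:50279395-50293636, minus strand) encodes an RNA-binding protein that germ cells need to enter meiosis and that binds the 3′ ends of its target mRNAs. It was at 2.94 FPKM with VD3 plus MM-401 (authors' interval 1.72 to 4.15), 1.85 with VD3 (0.997 to 2.71) and 6.98 in untreated cells (4.48 to 9.49). Both treated pools were low, and neither interval overlapped the untreated one. The estimated counts were 539 with VD3 plus MM-401, 337 with VD3 and 1301 in untreated cells. Differences are given as the log2 ratio of FPKM + 1, which understates those of low genes, and a gene is called where this ratio is at least 1 in size (2-fold). For Dazl the ratio was -1.48 for VD3 over untreated, -1.02 for VD3 plus MM-401 over untreated, just past the threshold, and 0.46 for VD3 plus MM-401 over VD3. By counts scaled to the total of the pool (CPM, with no length correction and no added constant), Dazl with VD3 was at 0.219 of the untreated level, and with VD3 plus MM-401 at 0.351 of it. The log2 ratios of CPM were -2.19 ± 0.42 and -1.51 ± 0.39, where the error is 1 SD derived from the deposited variances of the counts; it describes the authors' model of each pool.

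Taf7l (chrX:134460118-134476490, minus strand) encodes a paralogue of the TFIID subunit TAF7 that acts in spermatogenesis. It was at 7.18 FPKM with VD3 plus MM-401 (4.25 to 10.1), 7.47 with VD3 (4.46 to 10.5) and 5.46 in untreated cells (3.15 to 7.77). The 3 intervals overlapped. The log2 ratio of FPKM + 1 was 0.39 for VD3 over untreated and 0.34 for VD3 plus MM-401 over untreated, against 0.30 and 0.21 for the median gene of each comparison.

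Sycp3 and Sycp1 encode parts of the synaptonemal complex, which joins paired chromosomes in meiosis: SYCP3 builds the lateral elements and SYCP1 the transverse filaments between them. Sycp3 was at 7.69 FPKM with VD3 plus MM-401 (0.243 to 15.1), 6.73 with VD3 (3.44 to 10.02) and 17.4 in untreated cells (7.87 to 26.9). The treated values were both under the untreated one, but the intervals overlapped, and with VD3 plus MM-401 the deposited SD was 45.7% of the count. The log2 ratio was -1.25 for VD3 over untreated and -1.08 for VD3 plus MM-401 over untreated. By CPM the treated pools were at 0.342 (VD3 plus MM-401) and 0.351 (VD3) of the untreated level, and their log2 ratio to each other was -0.04 ± 0.75. The Sycp3 gene (GRCm38 chr10:88459569-88473236, plus strand) lies wholly within Chpt1, a phospholipid synthesis gene on the minus strand, and the counting is not stated to use strand, so their reads may not be fully told apart. The assembled locus that carries the name Sycp3 is longer than the gene and runs past both its ends (chr10:88452745-88504073, 51329 bases). How far reads of Chpt1 entered the Sycp3 values was not tested. Chpt1 was at 4.36 FPKM with VD3 plus MM-401, 2.92 with VD3 and 4.92 in untreated cells.

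Sycp1 (chr3:102818499-102936100, minus strand) differed between the 2 measures. It was at 8.51 FPKM with VD3 plus MM-401 (0 to 17.4), 9.06 with VD3 (3.69 to 14.4) and 16.7 in untreated cells (7.76 to 25.7). By FPKM both treated pools were below the untreated one and the intervals of all 3 overlapped, with log2 ratios of -0.90 for VD3 plus MM-401 over untreated and -0.82 for VD3 over untreated, both short of 2-fold. Its estimated counts were 437 with VD3 plus MM-401, 958 with VD3 and 1838 in untreated cells, so the pools stood in steps. By CPM, Sycp1 was at 0.202 of the untreated level with VD3 plus MM-401 and at 0.441 with VD3, with log2 ratios of -2.31 ± 0.40 and -1.18 ± 0.37. Between VD3 plus MM-401 and VD3 the log2 ratio was -1.13 ± 0.42 by CPM and -0.08 by FPKM + 1. The FPKM per count of Sycp1 was 2.14 times as high with VD3 plus MM-401 as in untreated cells, where the 95th percentile was 1.46 over 9781 genes with more than 500 counts in every pool; Sycp1, with 437 counts in the VD3 plus MM-401 pool, is not among those better counted genes. The annotated transcripts of Sycp1 run from 608 to 3437 bases, and an FPKM depends on the transcript length that reads are assigned to; which transcripts were used is not in the tables used here.

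**Figure D2:**
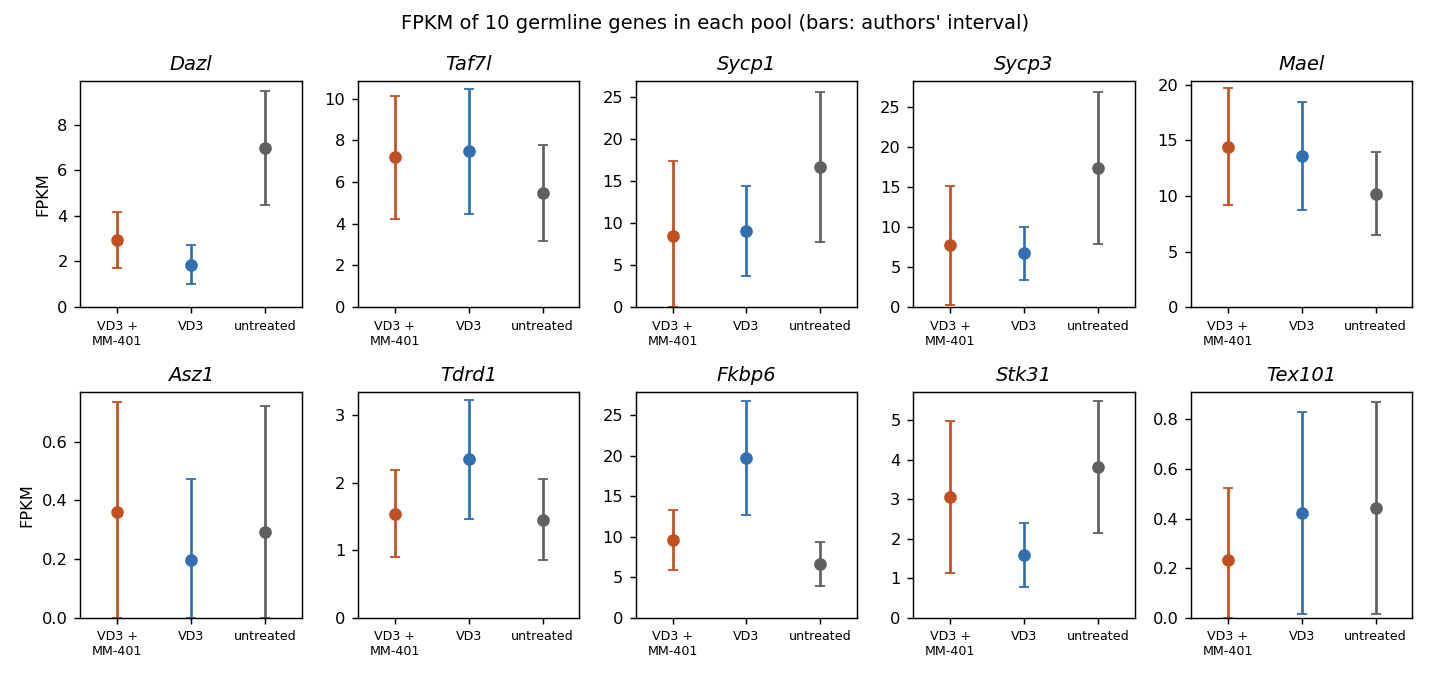
FPKM (y axis, linear from 0, own scale per panel) of the 10 germline genes in the VD3 plus MM-401, VD3 and untreated pools (x axis); points are the deposited values and bars the authors' interval, whose level is not given. The untreated bar lies apart from both treated bars for Dazl, and the VD3 bar lies apart from the untreated bar for Fkbp6.

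Of the 4 members of the piRNA pathway, Fkbp6 (chr5:135291704-135350044, minus strand) had the largest log2 ratio in size in each of the 3 comparisons. It encodes an FK506-binding protein family member that, with the chaperone HSP90, takes part in loading piRNAs in mouse germ cells. Fkbp6 was at 9.63 FPKM with VD3 plus MM-401 (5.94 to 13.3), 19.7 with VD3 (12.7 to 26.7) and 6.65 in untreated cells (3.92 to 9.37). The VD3 pool was the high one. Its interval lay apart from the untreated one and overlapped slightly with that of VD3 plus MM-401. The log2 ratio of FPKM + 1 was 1.44 for VD3 over untreated, higher than in 98.9% of 14225 genes, 0.48 for VD3 plus MM-401 over untreated and -0.96 for VD3 plus MM-401 over VD3, short of 2-fold and lower than in all but 2.23% of genes. By CPM, VD3 plus MM-401 was at 0.488 of the VD3 level, a log2 ratio of -1.04 ± 0.38. These comparisons share the VD3 pool, so its value enters both the higher and the lower difference.

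Mael (chr1:166201201-166238747, minus strand) encodes a protein of germ granules that takes part in transposon silencing. It was at 14.4 FPKM with VD3 plus MM-401 (9.17 to 19.7), 13.6 with VD3 (8.78 to 18.5) and 10.2 in untreated cells (6.44 to 13.9), with overlapping intervals. Its log2 ratios were 0.46 for VD3 plus MM-401 over untreated and 0.39 for VD3 over untreated, close to the median gene, and by CPM they were 0.26 ± 0.37 and 0.18 ± 0.37. Mael had the highest mean of the members. The 5 protein-coding genes whose pattern over the 3 pools was nearest to it, by the distance of centred log2 values among 10445 genes, were Map7d1, Azin2, Aaas, Nt5e and Mcm10, at distances of 0.0032 to 0.0086; 3 pools give only a weak description of a pattern.

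Tdrd1 (chr19:56826209-56870012, plus strand) encodes a Tudor domain protein that binds methylated PIWI proteins. It was at 1.54 FPKM with VD3 plus MM-401 (0.895 to 2.19), 2.34 with VD3 (1.46 to 3.22) and 1.45 in untreated cells (0.851 to 2.05). Like Fkbp6, it was highest with VD3 alone, but its 3 intervals overlapped, and its log2 ratio for VD3 over untreated was 0.45, or 0.48 ± 0.40 by CPM with no added constant. Asz1 (chr6:18050964-18109061, minus strand) encodes an ankyrin repeat protein of the mitochondrial surface in germ cells. It was near the floor of the data, with estimated counts of 23.0 with VD3 plus MM-401, 8.15 with VD3 and 12.0 in untreated cells. Each lower bound was 0 FPKM and the intervals of the pools overlapped. What size of difference in Asz1 could be seen at this depth was not tested.

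Stk31 (chr6:49395604-49469501, plus strand) encodes a germ cell protein with a Tudor and a kinase-like domain. It was at 3.05 FPKM with VD3 plus MM-401 (1.12 to 4.97), 1.59 with VD3 (0.785 to 2.40) and 3.82 in untreated cells (2.15 to 5.49). The VD3 pool was low, with intervals that overlapped with both other pools. The log2 ratio of FPKM + 1 for VD3 over untreated was -0.89, short of 2-fold, while by CPM it was -1.27 ± 0.44. For VD3 plus MM-401 over untreated it was -0.25 by FPKM + 1 and -0.86 ± 0.43 by CPM. Tex101 (chr7:24668007-24676675, minus strand) encodes a surface glycoprotein of male germ cells. It had estimated counts of 14.2 with VD3 plus MM-401, 25.6 with VD3 and 26.7 in untreated cells, and its FPKM stayed below 1 in each pool with overlapping intervals. The exact Poisson intervals of its CPM, which cover counting error only, were 0.104 to 0.320 with VD3 plus MM-401, 0.231 to 0.517 with VD3 and 0.286 to 0.631 in untreated cells.

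Counted over the 8 members that entered, VD3 over untreated had 1 gene past 2-fold higher, Fkbp6, and 2 lower, Dazl and Sycp3; of all 14225 genes with a mean of at least 1 FPKM, 3.44% were past 2-fold higher and 7.93% lower. With intervals apart as well, Fkbp6 and Dazl remained, against 0.879% of genes higher and 3.81% lower. VD3 plus MM-401 over untreated had 0 members higher and 2 lower, again Dazl and Sycp3, against 11.6% of genes higher and 5.79% lower; Dazl also had intervals apart, as did 2.49% of genes on the lower side. VD3 plus MM-401 over VD3 had 0 members past 2-fold, against 4.39% of genes higher and 2.04% lower. The median log2 ratio over the 8 members was -0.21 for VD3 over untreated and -0.10 for VD3 plus MM-401 over untreated, while the median over all genes was 0.30 and 0.21. Both of these comparisons share the untreated pool. The members were named with earlier results of these tables known, so these counts describe them and are no test.

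By CPM with a constant of 1 added, Dazl, Sycp1, Sycp3 and Stk31 were past 2-fold lower and Fkbp6 higher for VD3 over untreated, 5 of 8 in all, where 10.4% of genes were lower and 0.394% higher. For VD3 plus MM-401 over untreated, Dazl, Sycp1 and Sycp3 were lower, where 7.34% of genes were, and for VD3 plus MM-401 over VD3 Sycp1 alone was, where 0.366% of genes were. The lower members have transcripts of low GC content: the longest coding transcript had 34.3% GC in Sycp3, 34.6% in Sycp1, 37.0% in Dazl and 40.1% in Stk31, against 43.9% in Taf7l, 44.9% in Mael, 47.4% in Tdrd1 and 52.5% in Fkbp6. Genes of like GC content and length also stood lower with VD3 than the median gene. For VD3 over untreated the genes in the same of 25 bins as Dazl, Sycp1 and Stk31 had a median log2 ratio of -0.47, those in the bin of Sycp3 one of -0.08 and those in the bin of Fkbp6 one of 0.57. The bins also differ in length. The bin of Taf7l (1933 bases) had a median of -0.34, that of Tdrd1 (5187 bases) -0.13 and that of Mael (1691 bases) 0.41. Minus these medians, the log2 ratio was -1.01 for Dazl, -1.17 for Sycp3, -0.42 for Stk31, -0.34 for Sycp1 and 0.87 for Fkbp6. It was 0.73 for Taf7l, against 0.39 unadjusted, and 0.57 for Tdrd1, against 0.45 unadjusted. For VD3 plus MM-401 over untreated it was -0.76 for Dazl, -1.41 for Sycp3 and -0.64 for Sycp1, and it changed sign for Fkbp6 (-0.31, against 0.48 unadjusted) and Mael (-0.23, against 0.46 unadjusted), while Stk31 came to 0.0042, against -0.25 unadjusted. Mael also changed sign for VD3 over untreated (-0.02, against 0.39 unadjusted). For VD3 plus MM-401 over untreated the bin of Sycp3, the member of lowest GC content, had a median of 0.33, against 0.21 over all genes.

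**Figure D3:**
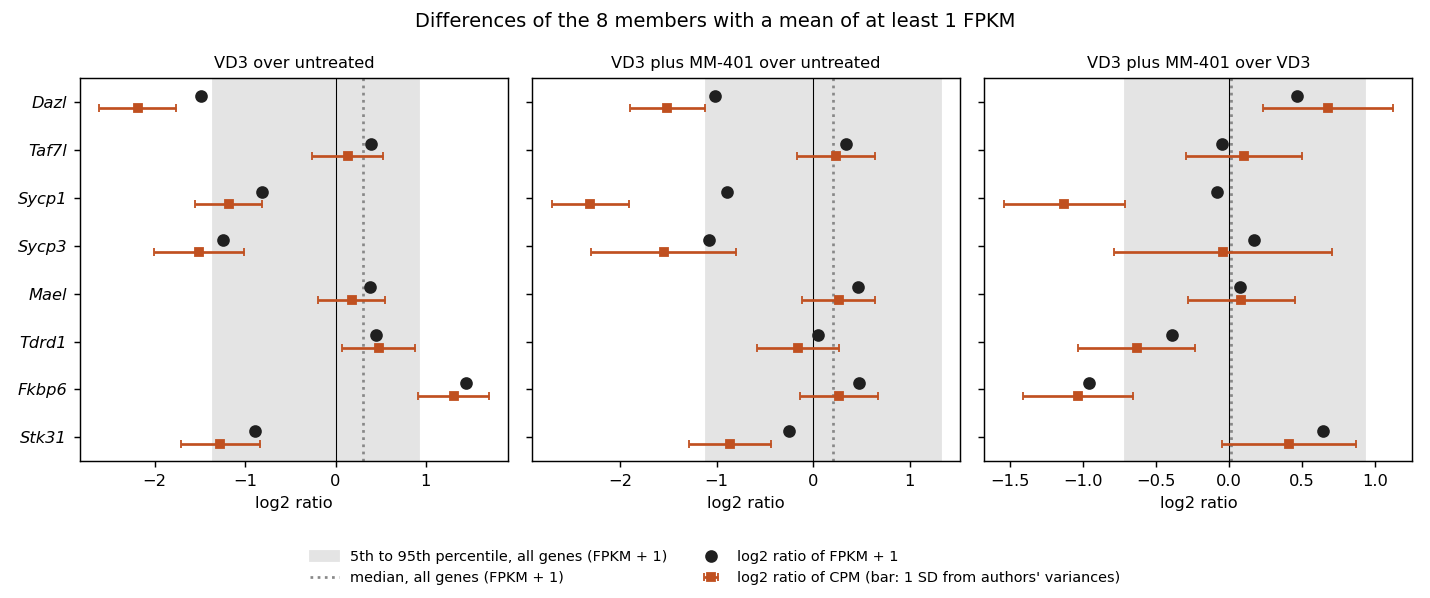
Log2 ratios (x axis) of the 8 germline genes with a mean of at least 1 FPKM (y axis) in 3 comparisons; black points are ratios of FPKM + 1, orange squares ratios of CPM with bars of 1 SD from the deposited variances, and the grey band and dotted line the 5th to 95th percentile and the median of all genes by FPKM + 1. Dazl, Sycp1 and Sycp3 lie on the negative side in both comparisons with untreated cells, and the 2 measures part most for Sycp1 with VD3 plus MM-401.

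Most other germline genes were within 2-fold, and the counts that follow stand beside the shares of all genes past it. These shares were 3.44% higher and 7.93% lower for VD3 over untreated, and 11.6% higher and 5.79% lower for VD3 plus MM-401 over untreated. For VD3 plus MM-401 over VD3 they were 4.39% higher and 2.04% lower. Among 20 other piRNA pathway genes, 16 had a mean of at least 1 FPKM. With VD3 over untreated, 0 were past 2-fold higher and 3 lower, with a median log2 ratio of -0.08. Tex15, needed for transposon silencing in male germ cells, was at 2.16 FPKM with VD3 and 10.8 in untreated cells, and Rnf17, a Tudor protein of spermatogenesis, at 19.3 with VD3 and 45.9 in untreated cells, both with intervals apart. Hsp90aa1, a chaperone of all cells that is also the partner of FKBP6, was at 1328 with VD3 and 2733 in untreated cells. The same 3 genes were lower for VD3 plus MM-401 over untreated, at 1.503 FPKM (Tex15), 20.8 (Rnf17) and 701 (Hsp90aa1) in the VD3 plus MM-401 pool, and 0 were higher. Between VD3 plus MM-401 and VD3, 1 gene was past 2-fold, Tdrkh, a mitochondrial partner of PIWI proteins, at 5.31 with VD3 plus MM-401 and 1.96 with VD3. Its intervals overlapped, and its log2 ratio was 1.09 by FPKM + 1 and 0.59 by CPM + 1.

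Among 35 other meiosis and synapsis genes, 17 of the 34 in the tables had a mean of at least 1 FPKM. With VD3 over untreated, 0 were higher and 2 lower by FPKM + 1. Meioc, which keeps germ cells in meiotic prophase, was at 0.786 FPKM with VD3 and 9.16 in untreated cells. Tex11, an X-linked gene of meiotic recombination, was at 0.998 with VD3 and 5.00 in untreated cells. Both had intervals apart. By CPM + 1, Hormad1, a chromosome axis protein gene, and Dmc1 were also past 2-fold lower, at -1.03 and -1.05, where 10.4% of all genes were. With VD3 plus MM-401 over untreated, 4 were higher and 3 lower by FPKM + 1, and by CPM + 1 none of the 4 was past 2-fold. Those lower were Meioc at 1.67 FPKM with VD3 plus MM-401, Tex11 at 1.49 and Hormad1 at 2.90, against 12.9 for Hormad1 in untreated cells. The intervals of these 3 lay apart from those of untreated cells. By CPM + 1 Stra8 was also past 2-fold lower, at -1.02, where 7.34% of all genes were. The higher ones were Tex14, a gene of germ cell bridges, at 37.7 with VD3 plus MM-401 and 8.15 in untreated cells, Syce1, of the synaptonemal complex, at 36.8 with VD3 plus MM-401 and 13.6 in untreated cells, Mnd1, a recombination cofactor, at 20.1 with VD3 plus MM-401 and 7.95 in untreated cells, and Rec114, needed for meiotic DNA breaks, at 25.7 with VD3 plus MM-401 and 11.9 in untreated cells, all with overlapping intervals. By CPM + 1 the log2 ratios were 0.06 for Tex14, against 2.08 by FPKM + 1, 0.62 for Syce1, 0.84 for Mnd1 and 0.19 for Rec114, and the median of the list was -0.19 by CPM and 0.49 by FPKM. Between VD3 plus MM-401 and VD3, 2 were higher, Tex14 and Mnd1, and 1 was lower, Hormad1, at 2.90 with VD3 plus MM-401 and 7.39 with VD3. Of all genes, 4.39% were higher and 2.04% lower. The intervals of each of these genes overlapped. By CPM + 1 only Mnd1 was past 2-fold, at a log2 ratio of 1.06, against 0.22 for Tex14 and -0.82 for Hormad1.

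A list of 29 other genes linked to DNA methylation in the germline or early embryo shares 11 with the lists above: Meioc, Tex11, Hormad1, Tdrkh, Mov10l1, Ddx4, Tdrd6, Piwil2, Brdt, Smc1b and Stag3. Of it, 21 had a mean of at least 1 FPKM. With VD3 over untreated, 0 were past 2-fold higher and 2 lower, with a median of 0.06, and with VD3 plus MM-401 over untreated, 1 was higher and 3 lower, with a median of 0.17. These values are by FPKM + 1. By CPM + 1 the medians were -0.18 for VD3 over untreated and -0.05 for VD3 plus MM-401 over untreated. Those lower by FPKM + 1 were the genes already given, Meioc, Tex11 and, with VD3 plus MM-401, Hormad1. By CPM + 1 Hormad1 was past 2-fold lower for VD3 over untreated as well, at -1.03. Nr0b1, a gene of pluripotent cells, was the 1 higher, at 148 FPKM with VD3 plus MM-401 and 65.9 in untreated cells, with overlapping intervals and a log2 ratio of 1.15 by FPKM + 1 and 0.44 by CPM + 1. Among 12 regulators of primordial germ cells, the embryonic founders of the germline, 8 had a mean of at least 1 FPKM, and 0 were past 2-fold with VD3 over untreated. Ifitm3, a membrane protein gene expressed in these and other cells, was at 537 with VD3 plus MM-401, 448 with VD3 and 266 in untreated cells. By FPKM + 1 it was the 1 gene of this list past 2-fold with VD3 plus MM-401 over untreated, at 1.01. Its intervals overlapped, and its log2 ratio by CPM + 1 was 0.78, short of 2-fold. Kit, of the same list, was past 2-fold lower there by CPM + 1, at -1.05. Mybl1, the A-MYB factor that turns on meiotic and piRNA genes in the testis, was at 1.26 FPKM with VD3 plus MM-401, 1.41 with VD3 and 5.99 in untreated cells, with intervals of both treated pools apart from the untreated one. By FPKM + 1 it was the 1 of 8 measured activators past 2-fold in either comparison with untreated cells. Tet1, which oxidises methylated cytosine, was at 35.02 with VD3 plus MM-401, 28.9 with VD3 and 58.3 in untreated cells, just short of 2-fold with VD3 by FPKM + 1 (-0.99), and past it by CPM + 1, at -1.21 for VD3 plus MM-401 over untreated and -1.74 for VD3 over untreated. By CPM + 1, Stra8, the trigger of meiotic entry, was also past it for VD3 plus MM-401 over untreated, at -1.02. Between VD3 plus MM-401 and VD3, Kmt2b, a histone methyltransferase, differed most (34.9 with VD3 plus MM-401, 57.3 with VD3), and Dppa4, of pluripotent cells, had the highest mean (101 with VD3 plus MM-401, 89.6 with VD3); neither was past 2-fold.

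**Figure D4:**
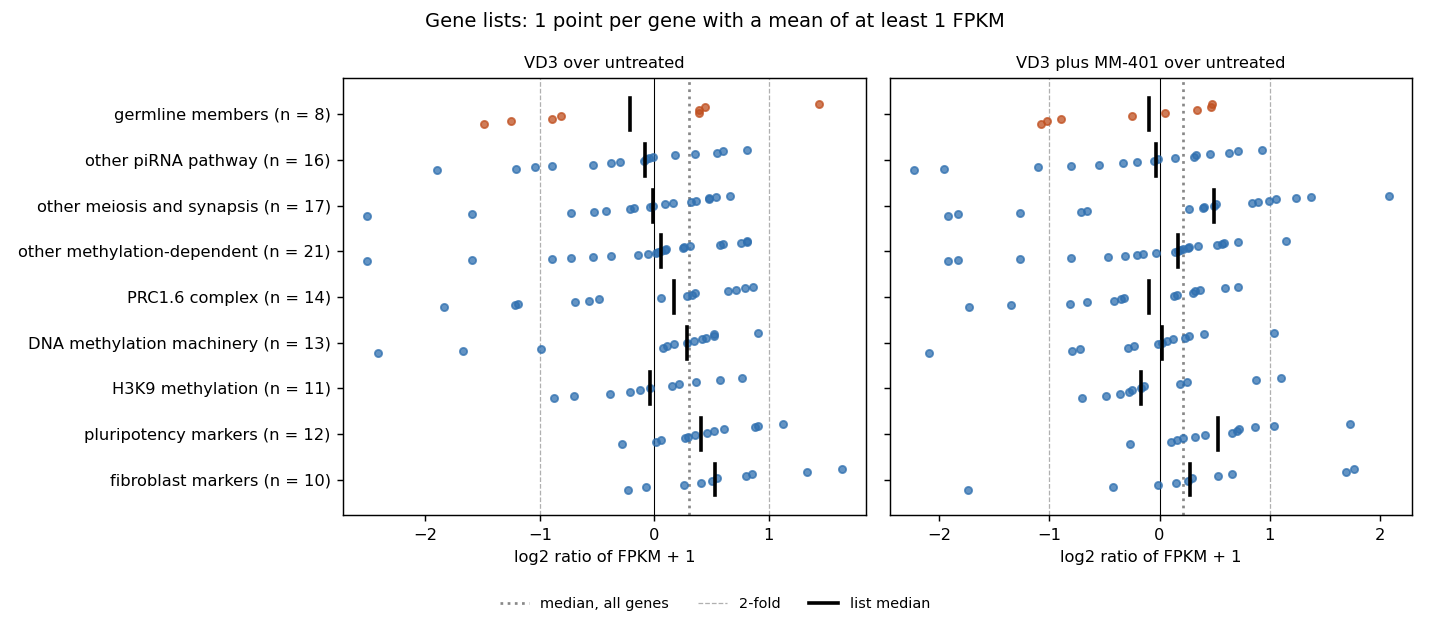
Log2 ratios of FPKM + 1 (x axis) for genes with a mean of at least 1 FPKM in 9 lists (y axis), 1 point per gene, germline members in orange, with the list median as a black bar, the median of all genes dotted and 2-fold dashed. The medians of the germline members, -0.21 and -0.10, lie left of the medians of all genes, 0.30 and 0.21, and members lie on both sides.

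The repressors known for such promoters were measured in every pool. All 14 genes of the PRC1.6 list had a mean of at least 1 FPKM. With VD3 over untreated 3 were past 2-fold lower and 0 higher, where 7.93% of all genes were lower and 3.44% higher: Mga, which encodes the DNA-binding scaffold of the complex, was at 17.2 FPKM with VD3 and 64.1 in untreated cells, Rnf2, a ubiquitin ligase, at 62.4 with VD3 and 143 in untreated cells, and Cbx3, a reader of H3 lysine 9 methylation, at 8.96 with VD3 and 22.1 in untreated cells. With VD3 plus MM-401 over untreated, Mga, at 18.6 FPKM with VD3 plus MM-401, and Rnf2, at 55.6, were lower. Hdac2, a histone deacetylase gene, was at 192 with VD3 plus MM-401 and 84.5 with VD3, where 4.39% of all genes were higher. Its log2 ratio was 1.17 by FPKM + 1 and 0.76 by CPM + 1. The authors' intervals of each of these overlapped. By CPM + 1 Rybp was also past 2-fold lower, at -1.29 for VD3 over untreated and -1.14 for VD3 plus MM-401 over untreated. Cbx3 was at -1.10 by CPM + 1 for VD3 plus MM-401 over untreated. Of 11 genes of H3 lysine 9 methylation, 0 were past 2-fold by FPKM + 1 with VD3 over untreated. With VD3 plus MM-401 over untreated 1 was higher, Ehmt2, a methyltransferase, at 134 against 61.9 in untreated cells. By CPM + 1 its log2 ratio was 0.29. Within 2-fold by FPKM + 1, Suv39h2 differed most with VD3 (13.4 against 25.4 in untreated cells), and by CPM + 1 it was past 2-fold, at -1.22. Setdb1 differed most between VD3 plus MM-401 (40.4) and VD3 (62.3). Trim28, a corepressor, had the highest mean (2436 with VD3 plus MM-401, 1976 with VD3, 1327 in untreated cells). Of 13 genes of the DNA methylation machinery, 2 were past 2-fold lower with VD3, Hells, a chromatin remodeller, at 281 FPKM with VD3 and 1506 in untreated cells, and Tet2, also an oxidase of methylated cytosine, at 7.98 with VD3 and 27.5 in untreated cells, against 15.4 with VD3 plus MM-401. With VD3 plus MM-401 over untreated, Hells was lower, at 351, and Dnmt3l, a cofactor of DNA methyltransferases, higher, at 299 against 145 in untreated cells, all with overlapping intervals. By CPM + 1 the log2 ratio of Dnmt3l was 0.63, short of 2-fold. Tet1, as given above, and Tet2, at -1.13, were past 2-fold lower there by CPM + 1.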

How the data were processed

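The tools were TopHat2 2.1.1, Cufflinks 2.2.1 and SAMtools 1.5, and the build mm10, per the submitters' processing notes, which as given here state neither order nor settings. Per the file headers, the authors deposited FPKM with interval bounds of unstated level for 62490 loci, and estimated counts, which need not be whole, with their variance. Both tables hold 1 pooled column per group. The VD3 column carries its group's name; the untreated and VD3 plus MM-401 columns were matched by the letters they share with those groups' titles and no others, so a different meaning of either name would change every comparison.

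Loci whose status was not OK in each of the pools (14) were removed, and loci that share a name were summed. The planned test across libraries could not be run on pools, so no p-value is given. Differences are log2 ratios of FPKM + 1, for genes with a mean of at least 1 FPKM; genes past 2-fold were called. CPM is the estimated count scaled to the pool's total count. GC content and length are of the longest coding transcript in GENCODE vM21, in 5 by 5 bins. The calculation of the log2 ratios was checked on simulated counts with planted changes, drawn from the untreated pool with counting error only. That simulation had equal depth, no variation between replicates and FPKM in proportion to counts. It therefore says nothing on how reliable the differences in these pools are. Promoters are from RefSeq. The members, lists and tests were chosen with earlier results of these data known. All members are named, and of other lists, in each comparison, genes past 2-fold (of more than 5, at least the 3 highest and 2 lowest) or, where none was, that of the highest mean, with the largest difference in the repressor and activator lists. Python 3.11.15, numpy 2.4.6 and pandas 2.3.3 were used.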

Additional observations from a re-analysis of the deposited data

How the results depend on the processing

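No paired analysis was possible because the tables hold 1 pooled column per group, and for the same reason leaving out a replicate and a replicate block were not run. For VD3 over untreated, the 3 members past 2-fold became 5 by CPM + 1 and 5 with values centred on the median gene, with Sycp1 and Stk31 added on the lower side; for VD3 plus MM-401 over untreated, the 2 became 1 where intervals had to be apart (Dazl) and 1 after adjustment for GC content and length (Sycp3). For VD3 plus MM-401 over VD3, the 0 members became 1 with a pseudocount of 0.1 (Fkbp6), 1 by CPM + 1 (Sycp1) and 1 after the adjustment (Fkbp6), all lower. CPM with no pseudocount, an alternative chosen after seeing the data, gave 5 members for VD3 over untreated and 2 for VD3 plus MM-401 over VD3. For centring, the pseudocount of 0.1, the adjustment and CPM with no pseudocount, the share of all genes past 2-fold was not counted. Their member counts therefore have no comparison to all genes. Centring lowers the ratio of every gene for VD3 over untreated by 0.30. The median of the other meiosis genes for VD3 plus MM-401 over untreated was 0.49 by FPKM + 1 and -0.19 by CPM + 1; the cause was not tested. Fkbp6, VD3 over untreated, dropped under 2-fold after the adjustment, at 0.87. Over 7 settings of the value, the ratio of Dazl for VD3 over untreated ran from -2.19 to -1.01, that of Sycp3 from -1.55 to -1.17 and that of Fkbp6 from 0.87 to 1.56. Depth limits Asz1 and Tex101, whose counts stayed under 30 in every pool.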
